A study of Bos taurus with 15 samples.

Results

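CD8 T cells of the adult bovine intestine are described here as the barcodes that carried RNA of the T cell receptor subunit gene *CD3E* and of the coreceptor gene *CD8A*, but none of *CD4*. Each barcode stands for one droplet of the 10x Genomics method, and RNA molecules are counted in it as unique molecular identifiers (UMIs). Members were chosen by measured UMIs: they had 500 to 4000 detected genes, under 50000 UMIs, at least 1 UMI each of *CD3E* and *CD8A*, and 0 UMIs of *CD4*. They came from the AD duodenum, jejunum, cecum, and colon. In all, 9781 barcodes met these conditions, among 28025 barcodes with *CD3E* and 40458 barcodes within the gene and UMI limits in these 4 libraries, and among 132361 in all 15 libraries. The duodenum gave 1861 members, the jejunum 1574, the cecum 2991, and the colon 3355.

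The study compared tissues of newborn (NB) and adult (AD) Holstein cattle, and the 15 libraries used here are 11 NB and 4 AD libraries. The 4 AD intestinal libraries came from 1 lactating Holstein cow, with 1 library per segment, so they hold no replicate animal. After the outer muscle had been removed, duodenum and cecum were digested with a lamina propria kit for 30 min, and jejunum and colon with a multi tissue kit for 41 min. Segments were therefore compared in the kit-matched pairs cecum against duodenum and colon against jejunum. Under the same rule, the 11 NB libraries gave 1930 barcodes in total, between 0 and 820 each, and they were not analyzed further.

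CD8 T cells recognize peptides on class I MHC molecules and kill infected or altered cells by releasing perforin and granzymes. Their coreceptor is either a heterodimer of CD8A and CD8B, typical of conventional T cells from the thymus, or a CD8A homodimer, which is common among the unconventional lymphocytes within the intestinal epithelium. In the gut wall many CD8 T cells are resident. They are held by integrins such as CD103, encoded by *ITGAE*, after arriving through homing receptors, of which CCR9 is known for the small intestine and GPR15 for the large intestine. CD4 T cells instead recognize class II MHC and act mostly through cytokines and costimulatory ligands.

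The label could be checked only with genes that the rule did not use. *CD8B* had at least 1 UMI in 70.7% of members in the duodenum (95% interval 68.6 to 72.8), 71.0% in the jejunum (68.7 to 73.3), 69.7% in the cecum (68.0 to 71.4), and 70.9% in the colon (69.3 to 72.4). These shares differed little between segments. In CD4 barcodes, which had *CD3E* and *CD4* but no *CD8A*, the share was 1.51% to 4.39%, and it was 0.714% to 0.880% in background barcodes, which had no UMI of *CD3D*, *CD3E*, *CD3G*, or *CD247* and at least 2 UMIs of B cell, myeloid, epithelial, or stromal markers. Median depth was 3701 to 3973 UMIs in members, 3316 to 4320 in CD4 barcodes, and 3536 to 4953 in background barcodes. After each barcode had been thinned to 1000 UMIs, *CD8B* was present in 34.2%, 30.9%, 30.8%, and 32.7% of members from duodenum to colon. Thinning gave each barcode the same depth, but the classes had been chosen at full depth. Apart from *TARP*, a transcript of the T cell receptor γ locus, genes of the receptor constant regions are not listed by symbol. Receptors of the α/β and γ/δ types were therefore not told apart.

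The 3 genes of the rule are given as a description only. Members held *CD3E* at 1981, 2120, 2646, and 2917 counts per 1000000 UMIs (CPM) and *CD8A* at 747, 679, 600, and 638 CPM in duodenum, jejunum, cecum, and colon. Just inside the rule, members with exactly 1 UMI of *CD8A* made up 24.0%, 23.2%, 34.6%, and 28.3%, and 57.0% to 62.4% of them had *CD8B*, against 73.3% to 75.3% of members with more *CD8A*. Just outside it, *CD3E* barcodes with neither coreceptor had *CD8B* in 10.1% in the duodenum, 14.9% in the jejunum, 27.5% in the cecum, and 22.9% in the colon. *CD3E* barcodes with both coreceptors numbered 85 to 176 per segment and were deeper, with a median of 6117 to 7003 UMIs.

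Total UMIs were 48674267 to 67485845 per AD library, and the members of one segment together held 7895772 to 15440485 UMIs. Between 30 and 48 barcode strings were shared by each pair of AD libraries, and 88 members carried such a string. Mitochondrial UMIs took a median of 5.79% to 7.64% of a member's UMIs. UMIs of other cell types were present in the members. *JCHAIN*, a plasma cell gene, had a UMI in 45.3%, 37.2%, 10.1%, and 20.1% of thinned members from duodenum to colon. The 11 myeloid markers, none of them at 0 in the members, summed to 238 CPM in the duodenum, 958 in the jejunum, 102 in the cecum, and 116 in the colon. The 12 epithelial markers, of which 1 was at 0, summed to 45.2, 148, 331, and 145 CPM. Results were therefore also computed with the 6313 members, 712 of them jejunal, that had no UMI of the lists for B, myeloid, mast, epithelial, stromal, endothelial, and smooth muscle cells; they are called restricted members, and barcodes chosen in the same way restricted barcodes. This set was not free of RNA of other cell types, since plasma cell and dendritic genes were not used to choose it: plasma cell genes still summed to 732, 556, 189, and 328 CPM in the restricted members from duodenum to colon, and dendritic genes to 7.41 to 40.8 CPM.

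Members outnumbered CD4 barcodes in 3 of the 4 segments. They made up 25.2% of *CD3E* barcodes in the duodenum (24.2 to 26.2), 36.7% in the jejunum (35.2 to 38.1), 36.3% in the cecum (35.3 to 37.4), and 41.4% in the colon (40.4 to 42.5). CD4 barcodes made up 44.8%, 29.8%, 12.9%, and 17.7%. The number of members per CD4 barcode was 0.561 in the duodenum, 1.23 in the jejunum, 2.82 in the cecum, and 2.34 in the colon, so CD4 barcodes outnumbered members in the duodenum and were outnumbered in both segments of the large intestine. *CD3E* barcodes with neither coreceptor reached 49.8% in the cecum (48.7 to 50.9) and 39.1% in the colon. These exact binomial intervals cover counting error only, and with 1 library per segment no test between segments was made. With at least 2 UMIs of the coreceptor required, the members' share was 19.1%, 28.2%, 23.8%, and 29.7%, and among restricted barcodes the jejunal share was 43.1%.

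**Figure D1:**
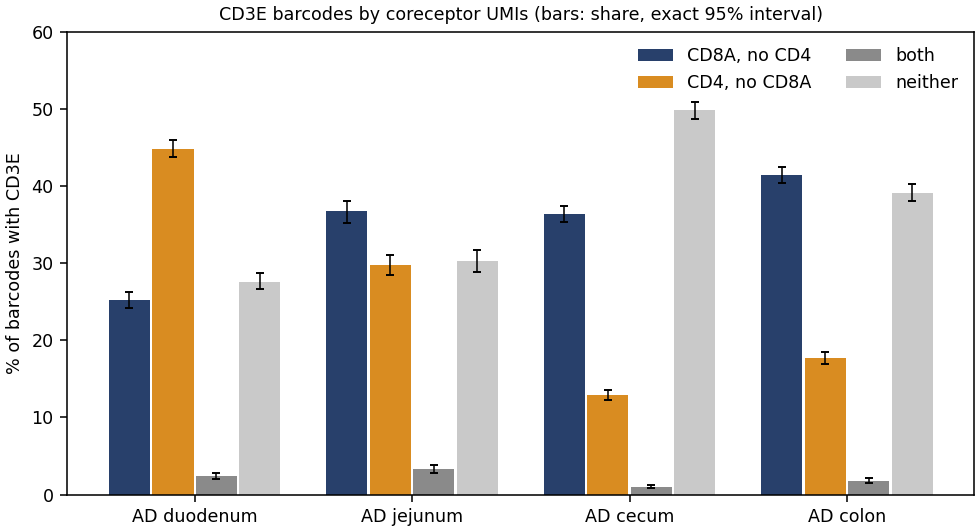
Share of *CD3E* barcodes (y axis, percent) with UMIs of *CD8A* but not *CD4*, of *CD4* but not *CD8A*, of both, or of neither, in each AD segment (x axis). Bars are shares and whiskers exact 95% binomial intervals, and the CD8 bar rises from 25.2% in the duodenum to 41.4% in the colon while the CD4 bar falls from 44.8% to 12.9% in the cecum and 17.7% in the colon.

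Members were next compared with CD4 barcodes of the same libraries. UMIs were summed per library and class and fitted with edgeR, with the library as a block. Since the 4 libraries are segments of 1 cow, the error measures the spread between segments and not between animals. Of 10596 genes tested, 1179 were higher in members, which is 11.1% of the genes, and 1331 were lower, which is 12.6%, at an adjusted p under 0.05. Without the colon library these numbers were 685 and 841, and without the cecum library 750 and 950. After thinning to 1000 UMIs they were 667 and 731. Among restricted barcodes, 1111 of 9192 genes were higher (12.1%) and 1142 lower (12.4%). Of 13 mitochondrial genes, 9 were higher in members and 1 was lower, with a median log2 difference of 0.21, and their part in the other differences was not tested.

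Genes of cytotoxic granules separated members from CD4 barcodes in every segment. Of 14 cytotoxic genes tested, 13 were higher in members and 1 was lower, with a median log2 difference of 2.91, against 0.00 over all genes. *GZMB*, encoding granzyme B, had 293, 1636, 988, and 1146 CPM in members from duodenum to colon and 10.8, 68.0, 111, and 103 CPM in CD4 barcodes. Its log2 difference was 4.06 ± 0.80 (SD of 4 libraries; adjusted p = 0.000313), and the 2 classes did not overlap. A second row named *GZMB* (3.0 ± 1.35; adjusted p = 0.00534) and the rows *GZMA* (4.06 ± 0.74) and *gzmA* (3.76 ± 0.30) moved the same way, but granzyme genes are close copies and reads may be split between them. *PRF1*, encoding the pore-forming perforin, had 128, 298, 219, and 224 CPM in members and 8.81, 22.6, 34.9, and 32.3 in CD4 barcodes (3.33 ± 0.62; adjusted p = 0.000246). *GNLY*, an antimicrobial granule protein, was higher by 3.01 ± 0.63 and the granule membrane gene *NKG7* by 2.73 ± 0.61, or by 3.87 among restricted barcodes. *NKG7* also had a UMI in 8.21% to 39.7% of thinned background barcodes, so it did not mark T cells alone. The one listed gene that was lower was *SRGN*, the proteoglycan core of granules, with 946 to 1055 CPM in members and 1764 to 2113 CPM in CD4 barcodes.

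*GZMM* had the largest log2 difference among the named genes that were higher in members, 5.44 ± 1.28 (adjusted p = 0.000233). It was at 88.8 and 71.9 CPM in the members of duodenum and jejunum and at 14.0 and 24.0 CPM in those of cecum and colon, and at 0.676 to 3.08 CPM in CD4 barcodes. *CD8B*, whose product pairs with CD8A, came next with 400, 339, 384, and 386 CPM in members and 4.59, 11.4, 14.0, and 12.2 CPM in CD4 barcodes (5.36 ± 0.76; adjusted p = 0.000118). Among restricted barcodes the differences were 5.95 for *CD8B* and 5.91 for *GZMM*. *CTSW*, a protease of cytotoxic lymphocytes, rose by 3.91 ± 0.86 on the log2 scale and *ADGRG1*, an adhesion receptor of such cells, by 3.53 ± 1.09. *TARP*, a transcript of the T cell receptor γ locus, rose by 3.79 ± 1.18, at 48 UMIs in all CD4 barcodes together and 1137 in members. A separate list of γ/δ T cell genes did not show such a difference. It summed to 19.5, 12.3, 22.2, and 14.7 CPM in members and to 19.5, 8.22, 18.9, and 14.7 CPM in CD4 barcodes. Of 3 of its genes tested, 1 was higher in members, and among restricted barcodes 0 of 2 were called. *TMIGD2*, a costimulatory receptor, rose by 3.26 ± 0.29.

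Members also carried the chemokines that attract further leukocytes. *CCL5* was at 5697, 5981, 10457, and 11228 CPM in members and at 175, 313, 1308, and 1170 CPM in CD4 barcodes (3.96 ± 0.93; adjusted p = 0.000614). After thinning it was present in 93.3%, 90.2%, 97.7%, and 97.4% of members and in 4.71%, 12.4%, 20.0%, and 22.0% of CD4 barcodes, beside 2.26% to 6.99% of background barcodes. *CCL4* rose by 3.28 ± 0.92, *CCL3* by 2.86 ± 1.22, and *XCL1*, which attracts cross-presenting dendritic cells, by 2.67 ± 1.25. Of 14 listed cytokine and chemokine genes tested, 4 were higher and 4 were lower, and the lower genes were *IL10*, *LTB*, *LTA*, and *TGFB1*. *IFNG*, encoding interferon-γ, was not called (0.66 ± 0.84; adjusted p = 0.148), with 50.8 to 196 CPM in members and 25.3 to 137 CPM in CD4 barcodes. *TNF* was not called either (adjusted p = 0.462).

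Several genes of tissue residence were higher in members. Of 20 genes listed for residence and gut homing, 7 were higher and 4 lower, with a median log2 difference of -0.05. *ITGAE* was at 49.1, 45.5, 43.4, and 64.1 CPM in members and at 7.30, 8.22, 11.5, and 12.2 CPM in CD4 barcodes (2.49 ± 0.34; adjusted p = 0.000118). *RUNX3*, the transcription factor that silences *CD4* in the CD8 lineage, rose by 2.26 ± 0.16, *ITGA1*, a collagen-binding integrin chain, by 1.44 ± 0.25, and *CD101* by 1.06 ± 0.20. *ZBTB7B*, the factor that directs the CD4 lineage, was lower (-2.11 ± 0.15). The residence marker *CD69* was not called (-0.22 ± 0.18; adjusted p = 0.0747), nor were *CXCR6* (0.00 ± 0.29), *CCR9* (-0.52 ± 0.97), and *GPR15* (-0.29 ± 0.57). Among restricted barcodes, 7 of these genes were higher and 6 lower, with *CD69* (-0.29; adjusted p = 0.00899) and *CCR9* (-1.06; adjusted p = 0.0216) called lower. *EOMES* (2.36 ± 0.98) and *TBX21* (0.90 ± 0.23), T-box factors of effector cells, were higher. Over 21 rows of lymphocyte transcription factors, 7 were higher and 8 lower.

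Receptors shared with natural killer cells formed another group. Of 18 such genes tested, 10 were higher and 3 lower, with a median log2 difference of 1.16. *KLRK1*, encoding the activating receptor NKG2D, was at 112, 106, 139, and 126 CPM in members and at 6.48, 10.1, 26.4, and 24.8 CPM in CD4 barcodes (3.11 ± 0.84; adjusted p = 0.000746). *CD96*, a receptor for nectin-like ligands, rose by 2.56 ± 0.41 and *CD244* by 1.89 ± 0.27. The 3 lower genes were *SH2D1A*, *NCR3*, and *TYROBP*. *TYROBP*, a signaling adaptor also abundant in macrophages, was higher in CD4 barcodes (-1.83 ± 0.97; adjusted p = 0.00921), but it was not called among restricted barcodes (0.46; adjusted p = 0.229). *FCER1G*, an adaptor of the same kind, was not called in the full comparison (0.63 ± 1.46; adjusted p = 0.444) and was higher in members in the restricted one (2.46; adjusted p = 0.000345).

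Genes of helper and regulatory T cells were lower in members. Of 21 such genes tested, 21 were lower, with a median log2 difference of -3.66. A gene could pass the filter on low counts through CD4 barcodes alone, so this count was partly set by the filter. Of the 28 genes of the list, 12 passed the filter in the split of members by *CD8B* described below. *CD40LG*, the ligand with which helper cells activate B cells, had 5.57, 3.05, 2.03, and 2.27 CPM in members and 156, 116, 226, and 197 CPM in CD4 barcodes (-5.76 ± 0.92; adjusted p = 0.000129). The checkpoint receptor gene *CTLA4* differed by -6.05 ± 0.90, the costimulatory receptors *TNFRSF4* and *TNFRSF18* by -4.96 ± 0.81 and -4.55 ± 0.40, and the chemokine receptors *CCR4* and *CXCR5* by -5.69 ± 0.65 and -4.14 ± 0.47. *IL17F*, a cytokine of mucosal defense, had 12 UMIs in all members and 392 in CD4 barcodes (-6.30 ± 1.01; adjusted p = 0.000102). *IL10* differed by -4.19 ± 1.62. The other named lower genes were *CFAP58*, a gene of cilia and flagella (-6.91 ± 1.51; 5 UMIs in members, 516 in CD4 barcodes), the leukotriene receptor gene *CYSLTR2* (-5.53 ± 0.67), *NSG1* (-4.58 ± 0.27), and *CHGA*, a granule protein of neuroendocrine cells (-4.08 ± 0.83). *CHGA* differed by -2.28 once the highest doublet scores had been left out (adjusted p = 0.0462), and it was not tested among restricted barcodes.

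**Figure D2:**
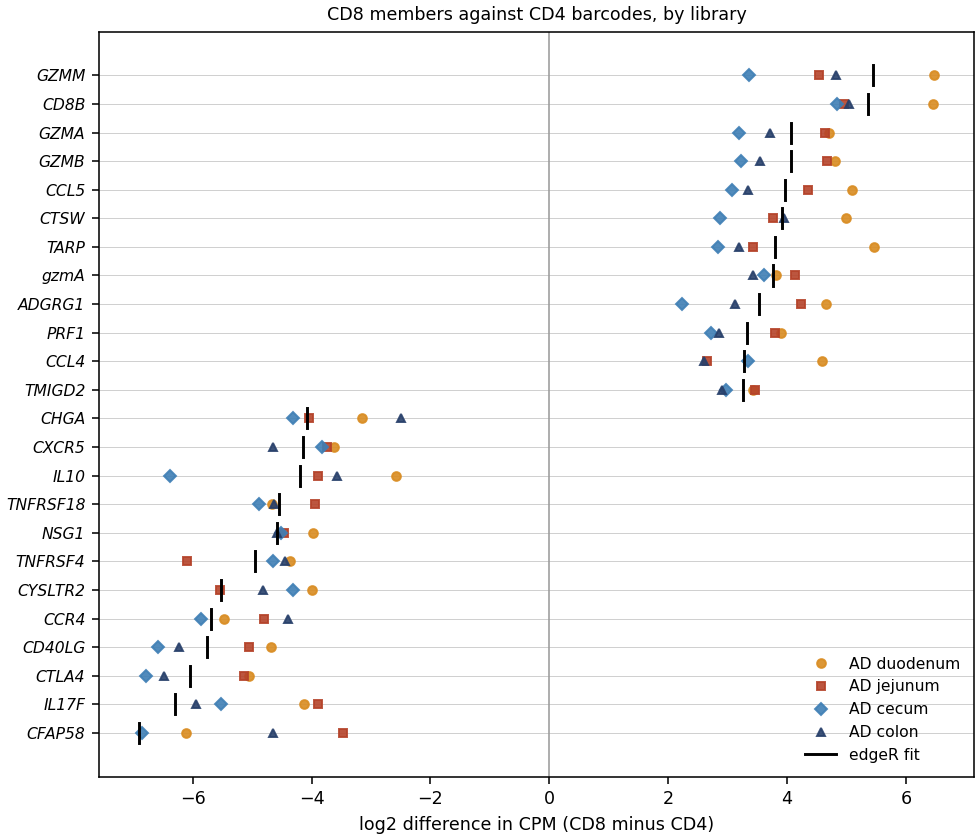
Log2 difference in CPM between members and CD4 barcodes (x axis) for the 24 named genes (y axis), with 1 marker per AD library and a black line for the edgeR fit. All markers of the 12 upper genes lie to the right of 0 and all of the 12 lower genes to the left, which the choice of named genes required. Library differences carry a prior count, so the fit can lie outside them for genes with few UMIs, such as *CFAP58* and *IL17F*.

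Several genes of naive and recirculating T cells were lower as well. Of 13 tested, 8 were lower, with a median log2 difference of -0.94. Here too a gene could pass the filter on low counts through CD4 barcodes alone, so this count may be partly set by the filter. In the split of members by *CD8B* described below, 9 genes of this list passed it. *IL7R*, the receptor for the survival cytokine interleukin 7, had 648, 134, 321, and 109 CPM in members and 1301, 435, 1279, and 719 CPM in CD4 barcodes (-1.77 ± 0.71; adjusted p = 0.00317). *CCR7*, the lymph node homing receptor, was at 0.712 to 11.8 CPM in members (-2.15 ± 1.00; adjusted p = 0.00643), and *LEF1* differed by -1.96 ± 0.44.

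Several genes listed for the T cell receptor complex and coreceptors were higher. Of 13 tested, 7 were higher and 1, *CD5*, was lower. This list includes the coreceptor gene *CD8B*, described above. *CD247*, encoding the signaling ζ chain, rose by 1.41 ± 0.40 and *CD3D* by 0.76 ± 0.23. The list counts of this comparison stand beside 11.1% of all genes tested higher and 12.6% lower, or 12.1% and 12.4% among restricted barcodes. Counts of a few genes near these shares do not set a list apart. Of 13 checkpoint and costimulation genes 2 were higher and 7 lower, and the higher genes were *ENTPD1*, which degrades extracellular ATP (2.43 ± 0.88), and *TNFRSF9*, a costimulatory receptor (1.0 ± 0.52). Among restricted barcodes 3 of 13 were higher, *ENTPD1* (3.37), *TNFRSF9* (1.51), and the checkpoint gene *LAG3* (1.26; adjusted p = 0.00477), and 7 were lower. *CD7*, an early T and natural killer lineage receptor, rose by 2.58 ± 0.51 (adjusted p = 0.00031). Of 22 cell division genes, 10 were higher, with a median of 0.50. Of 24 immediate early and heat shock genes, which respond to tissue dissociation, 9 were lower, led by *DUSP1* (-2.59 ± 0.43). Of the same 24 genes, 14 were lower and 3, *JUN*, *NR4A1*, and *EGR1*, were higher among restricted barcodes. Of 18 interferon-stimulated genes 1 was higher and 7 were lower, of 7 *GIMAP* rows 4 were higher, and of 10 lysosome and lipid genes 2 were higher and 5 lower (median -0.85). Among restricted barcodes, 3 of these 10 were higher and 2 lower (median 0.08).

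Markers of macrophages moved with the comparison. Of 10 myeloid markers tested, 8 were lower in members, and the list summed to 598, 6573, 964, and 1407 CPM in CD4 barcodes, above the members in each segment. *CD4* itself had a UMI in 9.23% to 33.7% of background barcodes, the highest share in the jejunum, and *CD8A* in 0.714% to 1.75%. Of 7 class II MHC genes, 4 were lower in members, with *CD74* at 890, 2502, 263, and 229 CPM against 1730, 9655, 1415, and 1954 CPM. Among restricted barcodes the direction turned: 4 of 6 class II genes were higher in members, and *CD74* was at 39.7 to 250 CPM in members and 37.4 to 247 CPM in CD4 barcodes (log2 difference 0.01; adjusted p = 0.97). In that set, 13 of 14 cytotoxic genes were higher in members and 20 of 20 helper and regulatory genes were lower. The helper and regulatory genes could again pass the filter through CD4 barcodes alone. In the split of restricted members by *CD8B*, 7 genes of that list were tested. The part of macrophage RNA in the other differences was not tested.

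Members differed among themselves by the second chain of the coreceptor. They were split into 6898 with a UMI of *CD8B* and 2883 without, and the classes were compared by edgeR with the library as a block. Median UMIs were 3936, 4112, 3685, and 4024 with *CD8B* and 3516, 3612, 3749, and 3846 without, and a barcode without a *CD8B* UMI can still express the gene. Of 9684 genes tested, 77 were higher with *CD8B*, which is 0.795%, and 131 were lower, which is 1.35%. Without the colon library these numbers were 11 and 31, and by DESeq2 they were 44 and 84. Among restricted members, 62 of 8213 genes were higher (0.755%) and 103 lower (1.25%). Of 13 mitochondrial genes, a sign of RNA quality, 8 were lower with *CD8B*, with a median log2 difference of -0.15, and 6 were lower among restricted members. Their part in the other differences was not tested.

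*KLRJ1* and *FCER1G* were lower in members with *CD8B*, while most other listed natural killer receptor genes were not called. *KLRJ1*, a C-type lectin-like receptor of the natural killer receptor group, was the first of the named genes, with a log2 difference of -2.24 ± 1.46 (adjusted p = 0.00552), and it had 7056 UMIs in members without *CD8B* and 5923 in the more numerous members with it. *FCER1G* differed by -1.39 ± 0.37 (adjusted p = 0.000266), *CD7* by -1.08 (adjusted p = 0.000266), the intestinal cadherin gene *CDH17* by -1.71 ± 0.41, and *CD247* by -0.63. All of these were lower with *CD8B* in 4 of 4 libraries, which the choice of named genes required for *KLRJ1*, *FCER1G*, and *CDH17*. Of 18 listed natural killer receptor and innate signaling genes, 4 were lower with *CD8B* and 1, the adaptor gene *HCST*, was higher (0.34; adjusted p = 0.0322). Among restricted members, 3 of 16 were lower and 2 were higher, *HCST* (0.25; adjusted p = 0.0438) and *KLRK1*, whose receptor signals through it (0.31; adjusted p = 0.0189). *STAP1*, an adaptor of lymphocyte receptor signaling (-1.63 ± 0.86), *SH3BGRL* (-1.45 ± 0.91), *GAPT* (-1.34 ± 0.45), and the actin-severing gene *SCIN* (-1.20 ± 0.72) were named as well. *SCIN* passed no threshold without the colon library (adjusted p = 0.0716), and *SH3BGRL* lost its call without the duodenum, jejunum, or colon library (0.0824, 0.122, and 0.148).

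Of 22 cell division genes tested, 9 were higher in members with *CD8B* and the others were not called, with a median log2 difference of 0.82. The split was made at full depth, and members with *CD8B* had the higher median UMIs in duodenum, jejunum, and colon, but not in cecum. Thinned barcodes kept the classes of full depth, so the part of depth in these differences was not tested. *PCLAF*, a partner of the replication clamp, rose by 1.39 ± 0.93 (adjusted p = 0.00219), *TOP2A* by 1.03 (adjusted p = 0.00857), the kinetochore gene *SPC24* by 1.24 ± 0.67, and the centromere gene *CENPW* by 1.21 ± 0.53. *CCNB2*, *CCNA2*, and *UBE2C* rose by 1.43, 1.34, and 1.28 with all libraries, and each lost its call without the jejunum library (adjusted p = 0.179, 0.203, and 0.0758) or the colon library (0.0894, 0.166, and 0.101). *CENPW* lost it without the colon library (0.171). *ESM1* rose by 1.34 ± 0.38, and *SPINK4*, a protease inhibitor of goblet cells, rose by 1.27 ± 0.77 but by 0.31 among restricted members (adjusted p = 0.753). Of 14 cytotoxic genes, 1, *CTSW*, was lower (-0.40; adjusted p = 0.0204), and the median was -0.03. Among restricted members *CTSW* was lower (-0.37; adjusted p = 0.0131), and *GZMB* (0.33; adjusted p = 0.0218) and *GZMA* (0.25; adjusted p = 0.0265) were higher. The second *GZMB* row was not called there (0.12, adjusted p = 0.744), and the row *gzmA* was higher (0.31, adjusted p = 0.0185). Among restricted barcodes, 8 of 19 division genes were higher, and *KLRJ1* (-1.92), *FCER1G* (-1.46), and *CDH17* (-1.89) stayed past the threshold. *CCNB2* (1.0; adjusted p = 0.251) and *UBE2C* (0.78; adjusted p = 0.0655) did not, and *CCNA2* and *CENPW* were not tested there.

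**Figure D3:**
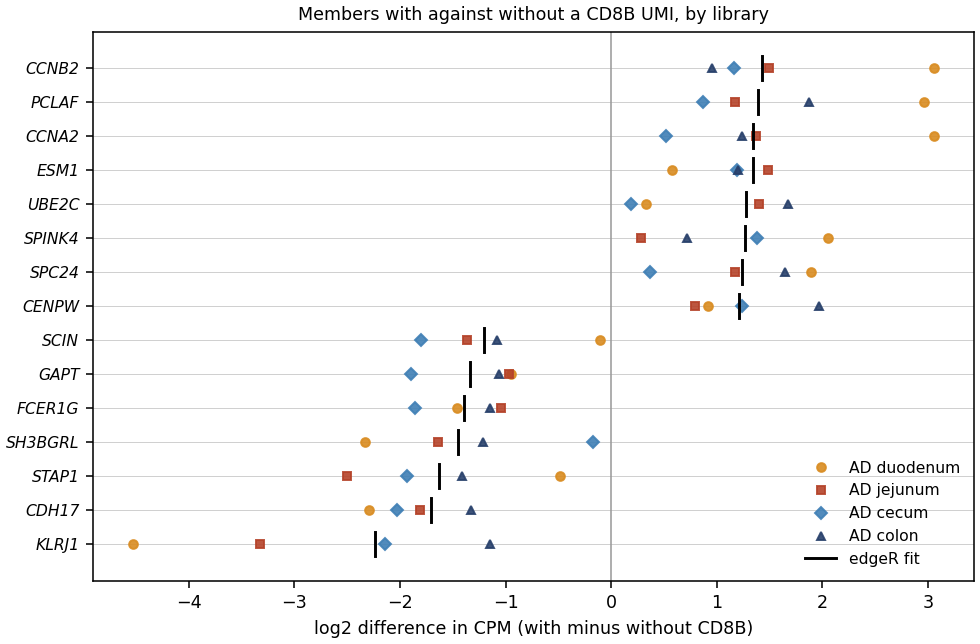
Log2 difference in CPM between members with and without a *CD8B* UMI (x axis) for 15 of the 16 named genes (y axis), with 1 marker per AD library and a black line for the edgeR fit. *CCNB2* at the top is fitted at 1.43 and *KLRJ1* at the bottom at -2.24, and the library values of *KLRJ1* spread more widely than those of *FCER1G*.

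Between segments there was no replicate, so levels are given with exact Poisson 95% intervals, which cover counting error only, and genes were named by size. Among 7441 genes with at least 10 CPM in the members of some segment, 42, or 0.564%, were at least 2-fold higher in the large intestine in both kit-matched pairs after 5 CPM had been added to each value, and 39, or 0.524%, were at least 2-fold higher in the small intestine. Another 9 genes were 2-fold apart in opposite directions. In the pairs that share a region and differ in kit, 38 genes were at least 2-fold higher and 6 at least 2-fold lower with the multi tissue kit in both. Single pairs held 202 genes apart for cecum and duodenum and 464 for colon and jejunum. Segment and library cannot be told apart.

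A few receptor and adaptor genes were higher in members of the large intestine. Of 15 listed natural killer receptor and innate signaling genes tested, 2, *KLRJ1* and *FCER1G*, were at least 2-fold higher in the large intestine in both pairs, 1, *TYROBP*, was higher in the small intestine, and the others, such as *KLRK1* at 112, 106, 139, and 126 CPM, passed neither way. *KLRJ1* had 9.12 CPM in the duodenum (7.13 to 11.5), 34.4 in the jejunum (30.5 to 38.6), 366 in the cecum (356 to 377), and 514 in the colon (503 to 525). After thinning it was found in 0.215%, 0.574%, 6.69%, and 13.3% of members, and in 0.0832% to 0.812% of background barcodes. *CD7* was at 95.9, 109, 403, and 466 CPM, *FCER1G* at 34.1, 87.1, 217, and 217 CPM, *CD247* at 552, 640, 1382, and 1661 CPM, and *CDH17* at 4.18, 9.75, 64.3, and 83.3 CPM. Each was higher in both large intestine segments than in both small intestine segments, also among restricted members. CD4 barcodes were also higher in both large intestine segments for *KLRJ1*, at 10.6, 6.60, 107, and 66.1 CPM, for *CD7*, at 15.1, 18.6, 115, and 57.5 CPM, for *CDH17*, at 4.44, 5.58, 25.2, and 15.5 CPM, and for *CD247*, at 298, 304, 444, and 509 CPM, but not for *FCER1G*, at 38.5, 197, 72, and 57 CPM. *FCER1G* is abundant in myeloid cells and had a UMI in 13.6% to 49.7% of thinned background barcodes, which were highest in the jejunum. Among restricted CD4 barcodes, *FCER1G* was higher in both large intestine segments, at 8.88, 8.58, 39.4, and 15.1 CPM. *CDH17* was not higher in both there, at 3.5, 1.01, 12.5, and 2.35 CPM.

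The homing receptor genes *GPR15* and *CCR9* differed by region. Of 17 listed residence and gut homing genes tested, 1 was at least 2-fold higher in the large intestine in both pairs. Another 1 was higher in the small intestine, and the others passed neither way. *GPR15* was at 3.17, 12.9, 80.5, and 67.8 CPM from duodenum to colon and was present in 0.215%, 1.78%, 7.99%, and 7.64% of thinned members. *CCR9* ran the opposite way, with 272 CPM in the duodenum (260 to 283), 52.7 in the jejunum (47.8 to 57.9), 15.4 in the cecum (13.3 to 17.7), and 8.87 in the colon (7.45 to 10.5), and with 20.8%, 5.10%, 0.903%, and 0.567% of thinned members. CD4 barcodes showed the same order for *CCR9*, at 353, 190, 13.7, and 7.27 CPM, and *GPR15* reached 113 and 120 CPM in those of cecum and colon. *GZMM*, at 88.8, 71.9, 14.0, and 24.0 CPM, was also higher in the small intestine.

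The 16 named genes included some that are known from other cell types. In the large intestine these were *GUCA2A*, an epithelial hormone (0.760, 6.10, 135, and 85.4 CPM), *EBD*, an enteric β-defensin (0, 21.2, 497, and 117 CPM), and *ADAMDEC1*, a protease of mucosal macrophages and stroma (0.253, 1.83, 20.1, and 95.9 CPM). Epithelial markers were also highest in the cecum. Among restricted members, *GUCA2A* fell to 14.3 and 5.22 CPM and *ADAMDEC1* to 0.130 and 6.79 CPM in cecum and colon, and neither passed the 2-fold rule, while *EBD* still did at 51.4 and 8.36 CPM. In the small intestine, *CD74*, *BOLA-DRA*, *APOE*, *TYROBP*, *AIF1*, *ANXA3*, and *PKIB* were named beside *CCR9*, 4 of 6 class II genes and 4 of 7 myeloid markers tested were called, and myeloid markers were highest in the jejunum. *BOLA-DRA*, a class II α chain gene, was at 433, 1419, 131, and 103 CPM in all members and at 40.9, 134, 19, and 30 CPM in the restricted set. There, 27 of the 42 genes of the large intestine and 3 of the 39 genes of the small intestine were called again, and the 3 were *CCR9*, *GZMM*, and *CD74*. Genes of the lists that chose the restricted set, *AIF1* among them, were at 0 there by choice and could not be called again. These were 4 myeloid genes and 1 mast cell gene of the small intestine, and 1 stromal gene of the large intestine.

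Several granule genes were lowest in the duodenum and highest in the jejunum. *GZMA* was at 194, 859, 484, and 752 CPM from duodenum to colon, *GNLY* at 279, 1837, 876, and 1258 CPM, and *PRF1* at 128, 298, 219, and 224 CPM. *GZMB* had the same order. *CTSW* did not, at 307, 262, 277, and 306 CPM, nor did *GZMM*. *GZMA*, *GNLY*, *PRF1*, and *GZMB* were each higher in jejunum and colon, digested with the multi tissue kit, than in duodenum and cecum. Duodenum and cecum were digested with the lamina propria kit, and the kit was not varied within a segment. In thinned members *GZMA* was present in 14.5% (12.9 to 16.2), 46.9% (44.4 to 49.4), 28.4% (26.8 to 30.1), and 35.8% (34.1 to 37.4). Of the 14 cytotoxic genes none was 2-fold higher in the large intestine in both pairs, and *GZMM* was the one higher in the small intestine. *CCL5* was higher in both large intestine segments, by less than 2-fold, and *CCL4*, at 864, 1181, 1776, and 2743 CPM, passed the rule.

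**Figure D4:**
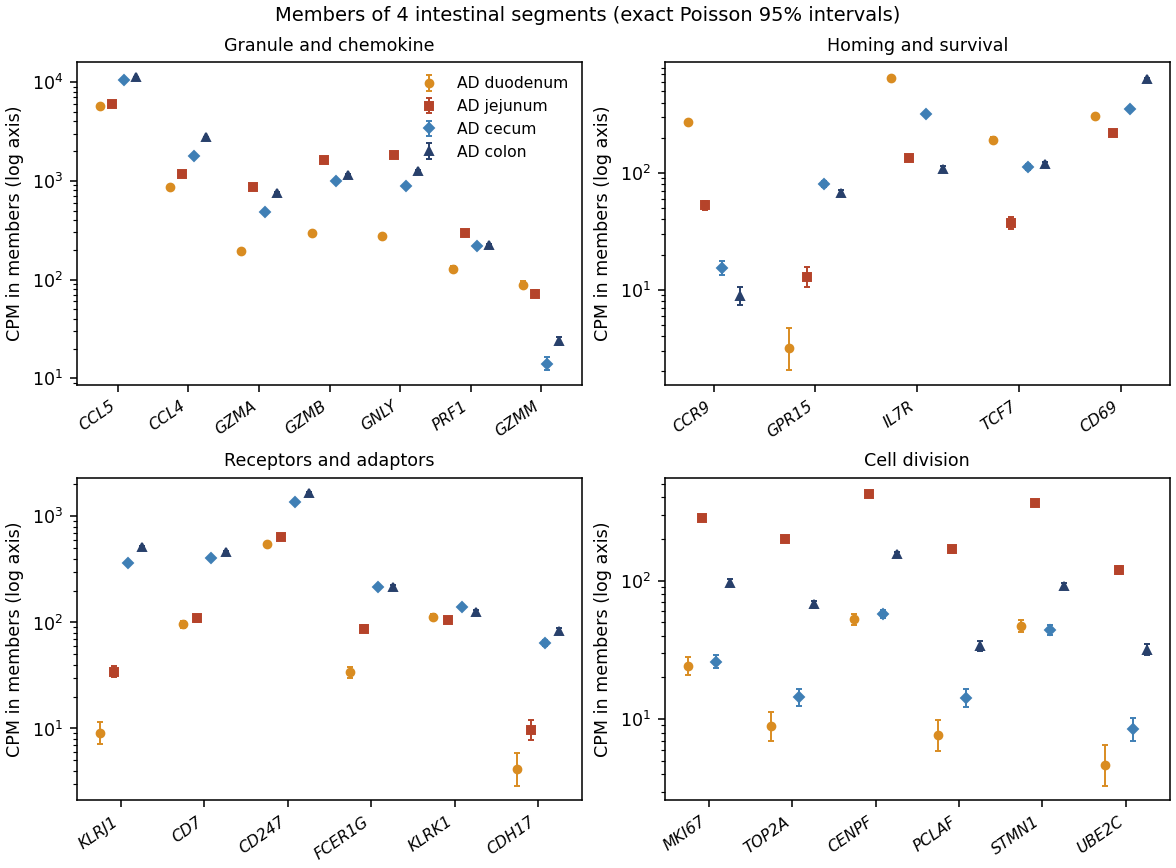
CPM in the members of each AD segment (y axes, log scale) for selected listed genes (x axes) in 4 groups: granule and chemokine genes, homing and survival genes, receptors and adaptors, and cell division genes. Points are levels and whiskers exact Poisson 95% intervals, and *CCR9* and *GZMM* fall from small to large intestine, *GPR15*, *KLRJ1*, and *CD7* rise, and the division genes are highest in the jejunum.

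Cell division genes were highest in the jejunum. *MKI67*, a nuclear protein of cycling cells, was at 24.3, 282, 26.0, and 96.7 CPM from duodenum to colon, and *TOP2A* at 8.87, 199, 14.4, and 67.4 CPM. Both genes were higher in the 2 segments digested with the multi tissue kit than in the 2 digested with the lamina propria kit. In thinned members *MKI67* was present in 0.646% (0.334 to 1.12), 8.03% (6.73 to 9.49), 0.702% (0.435 to 1.07), and 2.15% (1.69 to 2.70). In background barcodes it was present in 0.982% to 1.90%, above the shares of members in duodenum and cecum. Background barcodes were chosen by markers of other cell types, so their share is not a level of noise. The 22 division genes summed to 726, 3727, 738, and 1460 CPM. At least 2 UMIs of them were found in 10.7%, 27.5%, 10.6%, and 17.2% of thinned members, in 9.96%, 21.6%, 12.2%, and 15.5% of CD4 barcodes, and in 5.81% to 10.0% of background barcodes. The list holds *HMGB2*, a chromatin protein that is not limited to dividing cells, at 346, 1037, 351, and 605 CPM and in 27.1%, 37.1%, 25.7%, and 34.4% of thinned members, so these shares are not shares of dividing cells.

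*IL7R* followed another order, with 648 CPM in the duodenum, 134 in the jejunum, 321 in the cecum, and 109 in the colon, and with 36.0%, 11.7%, 19.6%, and 8.51% of thinned members. It was higher in the 2 segments digested with the lamina propria kit than in the 2 digested with the multi tissue kit, and the kit was not varied within a segment. *TCF7*, a factor of naive and memory T cells, was at 193, 37.4, 113, and 119 CPM, lowest in the jejunum. *CD69* was at 305, 218, 355, and 641 CPM and *IFNG* at 50.8, 95.5, 82.0, and 196 CPM, both highest in the colon. *IFNG* was also higher in both segments of the multi tissue kit than in both of the lamina propria kit. The immediate early and heat shock genes summed to 13473, 9395, 13778, and 21813 CPM, also highest in the colon, and their part in the levels of *CD69* and *IFNG* was not tested. Most of these patterns were not particular to members. Restricted CD4 barcodes had *IL7R* at 1431, 570, 1451, and 799 CPM and *TCF7* at 222, 81.8, 191, and 149 CPM. They had *CD69* at 416, 325, 574, and 840 CPM. Their *IFNG*, at 29.4, 182, 29.6, and 144 CPM, was also higher in both multi tissue kit segments, but highest in the jejunum.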

How the data were processed

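Single-cell suspensions were profiled with the 10x Genomics 3' v3 method. Per the labels and the submitters' processing notes, the authors used Cell Ranger 3.1.0 on ARS-UCD1.2, and the deposited counts are whole, unnormalized UMIs per gene and barcode. Of 27270 gene IDs, 7540 have no symbol. The members were chosen by the UMIs of *CD3E*, *CD8A*, and *CD4*. These genes, and *CD8B* for its split, were left out of counts of calls. The members, gene lists, and tests were chosen with earlier results of these data known.

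UMIs were summed per library and class, and the sums were tested with the edgeR quasi-likelihood method (edgeR 4.0.16, R 4.3.3; TMM, filterByExpr, library as block, Benjamini-Hochberg adjustment over all genes). The replicate number, 1 in each group, pairs nothing; the pairing comes from the library that gives both sums. Values after ± are SDs of the 4 within-library log2 differences, computed with a prior count of 2. Segments were compared by the log2 of CPM after 5 CPM had been added to each value. Shares have exact binomial (Clopper-Pearson) and CPM exact Poisson 95% intervals. Total UMIs of the AD libraries, 48674267 to 67485845, set the precision.

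Named genes were the first 12 each way (8 for the *CD8B* split) by log2 difference among genes past the threshold, in the same direction in 4 libraries, with a symbol and at least 20 CPM in 1 sum, and for segments the first 8 each way by the smaller of both ratios; list members were also named for their role. Doublets were not removed in the main setting. An alternative left out the highest Scrublet scores (scanpy 1.11.5; 0.8% per 1000 barcodes, 7.48% to 8.86% of barcodes), where 915 members were lost. The paper's filter of under 40% mitochondrial UMIs was another alternative, and 49 members exceeded it. Other alternatives varied the class definition, scaling, filter, tool, pseudocount, block, and depth. Scripts were tested on simulated data. The paper's rank-sum test treats cells as replicates and was not used. Results of 2 genes are not reported here.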

Additional observations from a re-analysis of the deposited data

Results flagged for a closer look

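Within groups of 4 libraries, Dixon's test marked 3 of the 40 named differences as holding one library far from the others, and chance alone marks about 1 in 20. The log2 difference of *CD8B* between members and CD4 barcodes was 6.45 in the duodenum and 4.96, 4.84, and 5.04 in jejunum, cecum, and colon (gap over range 0.874). That of *TNFRSF4* was -6.09 in the jejunum and -4.37, -4.65, and -4.45 in the others (0.838). In the *CD8B* split, *GAPT* differed by -1.90 in the cecum and by -0.95, -0.97, and -1.06 in the others (0.883). Named genes were chosen to have the same direction in all 4 libraries, so none of these could change direction.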

How the results depend on the processing

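With 1 library per segment from 1 cow, error between animals could not be measured, intervals cover counting error, and a UMI of 0 does not show that a gene is silent. For the 24 named genes of the comparison with CD4 barcodes, 332 of 333 values under 14 other settings kept direction and threshold, the exception being *CHGA* without the library as a block (adjusted p = 0.235), which also moved from -4.08 to -2.28 without the highest doublet scores (adjusted p = 0.0462). For the 16 named genes of the *CD8B* split, 159 of 196 did, 37 kept only their direction, and none reversed. The members' share of *CD3E* barcodes with at least 2 UMIs of the coreceptor was 19.1%, 28.2%, 23.8%, and 29.7% from duodenum to colon, and among restricted barcodes, which had no UMI of 7 marker lists for other cell types, 43.1% in the jejunum and 38.2% in the cecum. The first follows from a stricter rule, and for the second the cause was not tested.

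Each library gives both sums and is the block. With no replicate block, 214 genes were higher and 322 lower in members than in CD4 barcodes. In the *CD8B* split 0 and 0 passed by edgeR without the block, with 53 and 94 at an unadjusted p under 0.05. Leaving out 1 library at a time gave 685 to 1117 genes higher and 841 to 1156 lower in members than in CD4 barcodes, and 11 to 99 higher and 31 to 129 lower with *CD8B*; the lowest numbers were without the colon, with fewer samples fitted. Thinning to 1000 UMIs gave 667 and 731. In the *CD8B* split DESeq2 gave 44 and 84, and no filter on low counts 463 and 331, with 17426 genes tested. In kit-matched pairs, genes higher in the small intestine numbered 14 without the highest doublet scores and 5 among restricted members, of which 3 were shared. Genes higher in large and small intestine numbered 66 and 73 with a pseudocount of 1 CPM and 15 and 14 with 20 CPM, and 26 were higher in the large intestine at a minimum of 50 CPM, where fewer genes were tested.

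Shares scale with depth. Thinned to 2000 UMIs, *CD8B* was found in 51.3%, 49.1%, 50.6%, and 51.0% of members from duodenum to colon and *IL7R* in 51.7%, 19%, 30.5%, and 14.7%, and *MKI67* in 12.5% in the jejunum and 2.72% in the colon. Without thinning *CD8B* was found in 70.7%, 71.0%, 69.7%, and 70.9%, *IL7R* in 64.8%, 31.6%, 41.8%, and 23.4%, and *MKI67* in 1.72%, 17%, 1.54%, and 3.73%.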
